A study of Rattus norvegicus with 48 samples.

Results

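Metabotropic glutamate receptors are G protein-coupled receptors that answer to the transmitter glutamate on a slower time scale than the ion channel receptors. Group I receptors, here *Grm5* (mGlu5), couple through Gq to phospholipase C and lie mostly on the postsynaptic side. Group II receptors, *Grm2* (mGlu2) and *Grm3* (mGlu3), and group III receptors, *Grm4* (mGlu4), *Grm7* (mGlu7) and *Grm8* (mGlu8), couple to Gi and Go, lower cyclic AMP and often act as presynaptic brakes on transmitter release. *Grm3* is also made by glia, *Grm5* is abundant in the medium spiny neurons of the striatum, and *Grm2* is known from dentate granule cells and their mossy fibres. The 6 genes described here were taken by their symbols in the platform annotation, which gave each of them 1 probe set; they are 6 of 14324 distinct symbols on the array.

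The rats were adult males of the F3 generation of an outbred Sprague-Dawley colony. The vinclozolin lineage (Vin) goes back to F0 mothers injected in pregnancy with the anti-androgenic fungicide vinclozolin at 100 mg/kg/day between embryonic days 8 and 14. The control lineage (Con) goes back to mothers injected with the DMSO vehicle; F3 animals received neither. A rat of each lineage shared a cage as a dyad, and stressed dyads (St) were restrained for 6 hours a day on 21 days (postnatal days 23 to 43), while the remaining dyads (NSt) were not. Tissue punches of 2 mm were taken at 120 days of age from areas labelled CA1 and CA3 (hippocampal fields), BLA (basolateral amygdala) and CRTX (motor cortex). Each array carries RNA pooled from 4 animals, and the groups St-Vin, NSt-Vin, St-Con and NSt-Con have 3 arrays per area, from 6 dyad groups (1 to 3 NSt, 4 to 6 St). The labels give no litter. Of 48 arrays, 46 were used, because 1 NSt-Vin array of CRTX (dyad group 2) and 1 St-Con array of CA1 (dyad group 6) held nothing but the mean of their group's other arrays.

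Values are log2 intensities as deposited. The array medians ran from 7.11 to 7.17 in CA1, 7.34 to 7.39 in CA3, 7.08 to 7.13 in BLA and 6.76 to 6.80 in CRTX, and days followed the areas in part. BLA and CRTX shared an RNA preparation day and some CRTX arrays the scan day of BLA, while CA1 and CA3 shared another preparation day and had scan days of their own. CA1 or CA3 against BLA or CRTX therefore cannot be told apart from the preparation day, nor CA1 against CA3 from the scan day. Differences between areas were given on 3 scales: as deposited, with each array centred on its median, and quantile normalized. The labels of the areas were only partly borne out by markers. With arrays centred, 6 of 12 CA3 and CA2 pyramidal markers were highest in CA3, 3 in BLA and 3 in CRTX, and 0 in CA1. All 5 measured CA1 pyramidal markers were highest in the CA3 arrays (*Fibcd1* stood at 0.80 above the array median in CA1 and 1.03 in CA3; *Wfs1* at 2.72 and 2.90). Of 5 dentate granule cell markers 3 were highest in CA3, 1 in CA1 (*Tdo2*) and 1 in BLA (*Pdzd2*); *Prox1* was among the 3 (0.64 in CA1 and 1.61 in CA3, against -0.86 in BLA and -1.09 in CRTX). All 11 oligodendrocyte markers were highest in CA1, and 13 of 16 striatal markers in BLA. Of 7 basolateral amygdala markers, 2 were highest in BLA, 4 in CA3 and 1 in CRTX. Of 7 cortical layer markers, 3 were highest in CRTX, 2 in CA1, 1 in CA3 and 1 in BLA. The names CA1, CA3, BLA and CRTX stand below for the labels of the punches.

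Promoter windows from RefSeq (GRCr8, 250 bases before to 50 after the gene start) were found for *Grm5*, *Grm7* and *Grm8*. Those of *Grm8* and *Grm5* are shown because *Grm8* spanned the widest range between areas and *Grm5* ran the opposite way between CA3 and CRTX: as deposited *Grm8* was highest in CRTX, where *Grm5* was lowest. Capitals mark the E-box letters CANNTG, to which basic helix-loop-helix factors can bind, found once in each on either strand. The *Grm8* window lies at chr4:57687457-57687756 on the minus strand and the *Grm5* window at chr1:150733503-150733802 on the plus strand.
Grm8: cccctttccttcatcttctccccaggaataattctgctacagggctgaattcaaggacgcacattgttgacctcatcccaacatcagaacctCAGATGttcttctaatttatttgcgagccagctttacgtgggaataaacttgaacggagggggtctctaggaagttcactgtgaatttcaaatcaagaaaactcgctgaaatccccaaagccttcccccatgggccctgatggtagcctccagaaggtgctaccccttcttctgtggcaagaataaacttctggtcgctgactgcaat
Grm5: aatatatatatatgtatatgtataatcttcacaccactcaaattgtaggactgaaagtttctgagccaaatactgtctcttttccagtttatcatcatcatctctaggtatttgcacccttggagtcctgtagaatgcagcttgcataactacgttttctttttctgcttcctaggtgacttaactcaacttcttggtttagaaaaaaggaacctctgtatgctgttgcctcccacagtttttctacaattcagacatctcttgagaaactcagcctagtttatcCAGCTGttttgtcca
The E-box letters occurred in 72.1% of the 33469 windows of the table, so their presence sets neither gene apart. The letters GGGCGG (a GC box, in 33.1% of windows) were found in neither, and 2 times in the *Grm7* window; TGACG (21.2%) and TATAAA (14.2%) were in none of the 3 windows, on either strand, and no motif overlapped another. The share of G and C was 47.3% in the *Grm8* window and 37.3% in the *Grm5* window, beside a median of 51.7% over all windows, and the windows held 6 and 1 CpG dinucleotides, beside a median of 7. In *Grm7* the share was 62.0%, with 9 CpG dinucleotides.

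*Grm8* and *Grm4*, both of group III, were lower in the CA1 and CA3 punches than in the BLA and CRTX punches on every scale. *Grm8* had the widest span of the 6 genes. It ranged from 6.60 to 8.97 in the 11 CA1 arrays (median 8.15) and from 7.34 to 7.96 in the 12 CA3 arrays (median 7.58), against 7.99 to 9.32 in the 12 BLA arrays (median 8.98) and 8.61 to 9.18 in the 11 CRTX arrays (median 8.89). No CA3 array reached the lowest BLA or CRTX array, while the CA1 arrays overlapped both.

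The fitted differences of *Grm8*, with standard errors, were -1.26 ± 0.16 for CA3 minus CRTX (limma, Benjamini-Hochberg adjusted p = 3.69e-09) and -1.22 ± 0.15 for CA3 minus BLA (adjusted p = 5.29e-09). From CA1 the difference was -1.01 ± 0.16 to CRTX (adjusted p = 7.86e-07) and -0.97 ± 0.16 to BLA (adjusted p = 1.44e-06). They kept their direction and their call on all 3 scales, with values down to -1.85 for CA3 minus CRTX with centred arrays. Pools that gave both areas were lower in CA3 than in BLA in 12 of 12 cases, and lower in CA1 than in BLA in 11 of 11. BLA and CRTX, the highest pair as deposited, did not differ past the threshold there (-0.04 ± 0.16, adjusted p = 0.819) or quantile normalized (-0.12, adjusted p = 0.49), but BLA was lower with centred arrays (-0.36, adjusted p = 0.0378). CA1 and CA3 did not differ past the threshold as deposited (0.25 ± 0.16, adjusted p = 0.147), while CA1 was higher by 0.48 both with centred arrays (adjusted p = 0.0094) and quantile normalized (adjusted p = 0.01).

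*Grm4* was tighter within areas. It averaged 7.42 ± 0.0946 in CA1 (SD, n = 11) and 7.46 ± 0.0501 in CA3 (n = 12), against 8.08 ± 0.167 in BLA (n = 12) and 7.75 ± 0.0628 in CRTX (n = 11). The highest CA1 and CA3 arrays, at 7.56 and 7.55, lay below the lowest CRTX array, at 7.62, and the lowest BLA array, at 7.79. The differences were -0.66 ± 0.047 for CA1 minus BLA (adjusted p = 1.55e-14), -0.62 ± 0.046 for CA3 minus BLA (1.14e-14), -0.33 ± 0.049 for CA1 minus CRTX (1.72e-07) and -0.28 ± 0.047 for CA3 minus CRTX (9.65e-07), all lower on every scale. *Grm4* was higher in BLA than in CRTX by 0.33 ± 0.047 as deposited (adjusted p = 8.9e-08), and by 0.14 quantile normalized (adjusted p = 0.00734), but the difference was 0.01 with centred arrays (adjusted p = 0.853). The lowest pair, CA1 and CA3, did not differ past the threshold as deposited (-0.04, adjusted p = 0.401), while CA1 was higher with centred arrays (0.19, adjusted p = 0.000867) and quantile normalized (0.20, adjusted p = 0.000607).

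**Figure D1:**
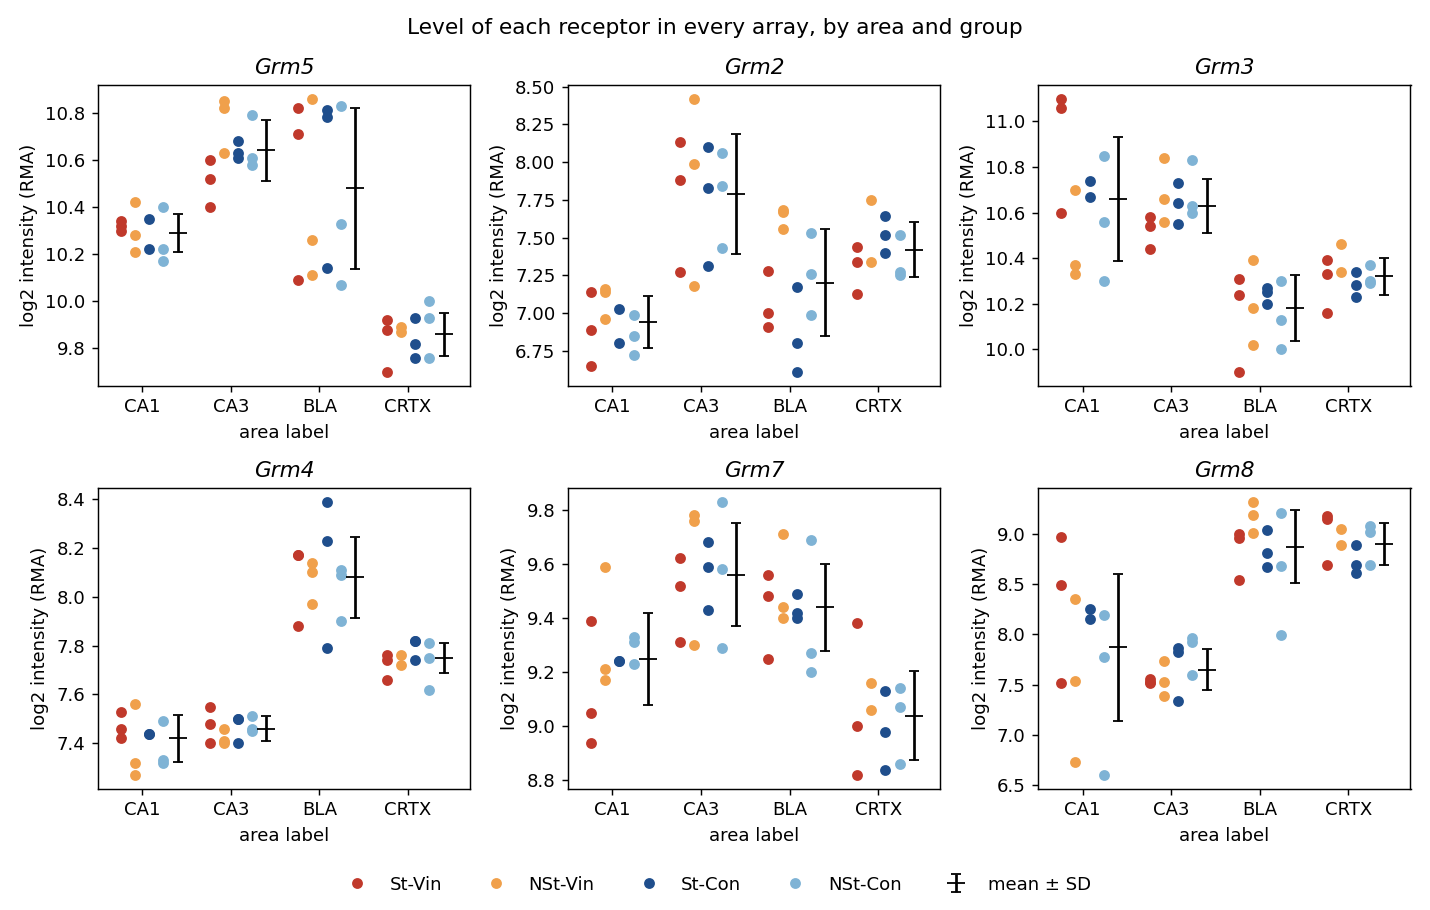
Log2 intensity (vertical axes) of each receptor in every array used, by area label and group (colours); black bars are the mean ± SD of an area (n = 11 or 12 arrays). *Grm8* and *Grm4* are low in CA1 and CA3, *Grm5* is low in CRTX and splits in BLA, and *Grm8* in CA1 spans 6.60 to 8.97.

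*Grm7*, the third group III receptor and the one placed at the active zone of glutamate terminals, did not share this pattern. It averaged 9.25 ± 0.17 in CA1, 9.56 ± 0.191 in CA3, 9.44 ± 0.16 in BLA and 9.04 ± 0.166 in CRTX (SD, n = 11, 12, 12 and 11). CA3 and BLA, the highest pair, did not differ past the threshold as deposited (0.11 ± 0.074, adjusted p = 0.141) or with centred arrays (-0.15, adjusted p = 0.0727), but CA3 was lower quantile normalized (-0.36, adjusted p = 4.16e-05). The one difference called on all 3 scales was the lower level in CA1 than in BLA (-0.20 ± 0.076, adjusted p = 0.0191). Without the 6 BLA arrays of dyad groups 1, 4 and 5, in which the striatal marker list stood above the mean of the BLA arrays, that difference was -0.08 (adjusted p = 0.479).

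*Grm5*, the group I receptor, was lower in motor cortex than in CA3 and BLA on every scale. It averaged 10.29 ± 0.0816 in CA1, 10.64 ± 0.128 in CA3 and 10.48 ± 0.341 in BLA, against 9.86 ± 0.0903 in CRTX (SD, n = 11, 12, 12 and 11). Every one of the 11 matched pools was higher in CA3 than in CRTX (0.78 ± 0.085, adjusted p = 1.32e-10) and higher in BLA than in CRTX (0.62 ± 0.085, adjusted p = 4.23e-08), and both differences were called on the other scales (0.20 and 0.29 for CA3; 0.30 and 0.63 for BLA). CA1 exceeded CRTX by 0.43 ± 0.088 as deposited (adjusted p = 3.24e-05), but by 0.08 (adjusted p = 0.456) and 0.17 (adjusted p = 0.0665) on the other scales. Within the non-stressed arrays of scan day 1, the one scan day with arrays of both areas, BLA exceeded CRTX by 0.52. There NSt-Vin of CRTX was the array of dyad group 1 alone, and the pool was not a block. The pair CA3 and BLA did not differ past the threshold as deposited (0.16 ± 0.083, adjusted p = 0.0703) or with centred arrays (-0.10, adjusted p = 0.266), but CA3 was lower quantile normalized (-0.33, adjusted p = 0.000344). *Grm5* was lower in CA1 than in BLA on all scales (-0.19 ± 0.085, adjusted p = 0.0397), but without the 6 BLA arrays high in striatal markers CA1 exceeded BLA by 0.14. Without the same arrays CA3 exceeded BLA by 0.49, and BLA exceeded CRTX by 0.29, as deposited. The size of the *Grm5* differences from BLA thus depended on these arrays.

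The 2 group II receptors had different area orders. *Grm2* averaged 6.94 ± 0.174 in CA1 (SD, n = 11), 7.79 ± 0.397 in CA3 (n = 12), 7.20 ± 0.354 in BLA (n = 12) and 7.42 ± 0.181 in CRTX (n = 11). It was lower in CA1 than in CA3 in 11 of 11 pools (-0.85 ± 0.11, adjusted p = 3.23e-08) and lower in CA1 than in CRTX in 10 of 10 pools (-0.49 ± 0.12, adjusted p = 0.00023), on every scale. CA3 exceeded BLA by 0.58 ± 0.11 (adjusted p = 1.01e-05), also on every scale, in 10 of 12 pools. CA1 was below BLA by a difference of -0.27 ± 0.11 (adjusted p = 0.0317), which was -0.20 (adjusted p = 0.158) without the arrays rich in choroid plexus markers. CA3 and CRTX, the highest pair, differed by 0.36 ± 0.11 as deposited (adjusted p = 0.00363), with the sign turned on the other scales (-0.23 on each). BLA and CRTX, neighbours in the order, did not differ past the threshold as deposited (-0.22 ± 0.11, adjusted p = 0.0697), but BLA was lower with centred arrays (-0.55, adjusted p = 5.32e-05) and quantile normalized (-0.51, adjusted p = 0.000119).

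*Grm3* averaged 10.66 ± 0.271 in CA1, 10.63 ± 0.118 in CA3, 10.18 ± 0.145 in BLA and 10.32 ± 0.0803 in CRTX (SD, n = 11, 12, 12 and 11). CA1 and CA3, the highest pair, did not differ past the threshold as deposited (0.03 ± 0.061, adjusted p = 0.631), but CA1 was higher with centred arrays (0.27, adjusted p = 0.000394) and quantile normalized (0.26, adjusted p = 0.000276). CA1 exceeded BLA in 11 of 11 pools (0.48 ± 0.061, adjusted p = 9.86e-09), and BLA was below CRTX in 10 of 11 (-0.14 ± 0.061, adjusted p = 0.0347); these 2 differences were called on all scales. The second was -0.22 within the non-stressed arrays of scan day 1, where NSt-Vin of CRTX was a single array. It did not pass for *Grm3* without the choroid-rich arrays (-0.12, adjusted p = 0.0654) or with the pool as a fixed effect (-0.12, adjusted p = 0.0705). CA3 exceeded CRTX by 0.31 ± 0.061 as deposited (adjusted p = 1.41e-05) but was lower by a difference of -0.28 with centred arrays (adjusted p = 0.000176), so the direction between these areas was set by the scale.

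Most of the array differed between areas, so that calls among the 6 genes are given beside those of all probe sets. As deposited, the adjusted threshold was passed by 3 receptors and 80.2% of probe sets in CA1 minus CA3, 6 and 77% in CA1 minus BLA, 6 and 88.6% in CA1 minus CRTX, 4 and 87.7% in CA3 minus BLA, 6 and 95.1% in CA3 minus CRTX, and 4 and 79.6% in BLA minus CRTX. Fewer were called in the same direction on all 3 scales. In CA1 minus CA3 1 of 6 was called (*Grm2*, lower), where 31.7% of all probe sets were called in either direction. In CA1 minus BLA all 6 were called, 5 lower and *Grm3* higher, against 56.1% of probe sets. In CA1 minus CRTX, *Grm2*, *Grm4* and *Grm8* were called lower, 3 of 6, where 4.51% of probe sets were called lower and 29.4% in either direction. In CA3 minus BLA 3 of 6 were called, beside 43.3% of probe sets. In CA3 minus CRTX 3 of 6 were called, with *Grm4* and *Grm8* lower where 2.71% of probe sets were lower and 28.2% were called in all. In BLA minus CRTX 2 of 6 were called, beside 40.3%. The median over all probe sets as deposited was -0.21 for CA1 minus CA3, 0.13 for CA1 minus BLA, 0.30 for CA1 minus CRTX, 0.32 for CA3 minus BLA, 0.50 for CA3 minus CRTX and 0.18 for BLA minus CRTX.

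**Figure D2:**
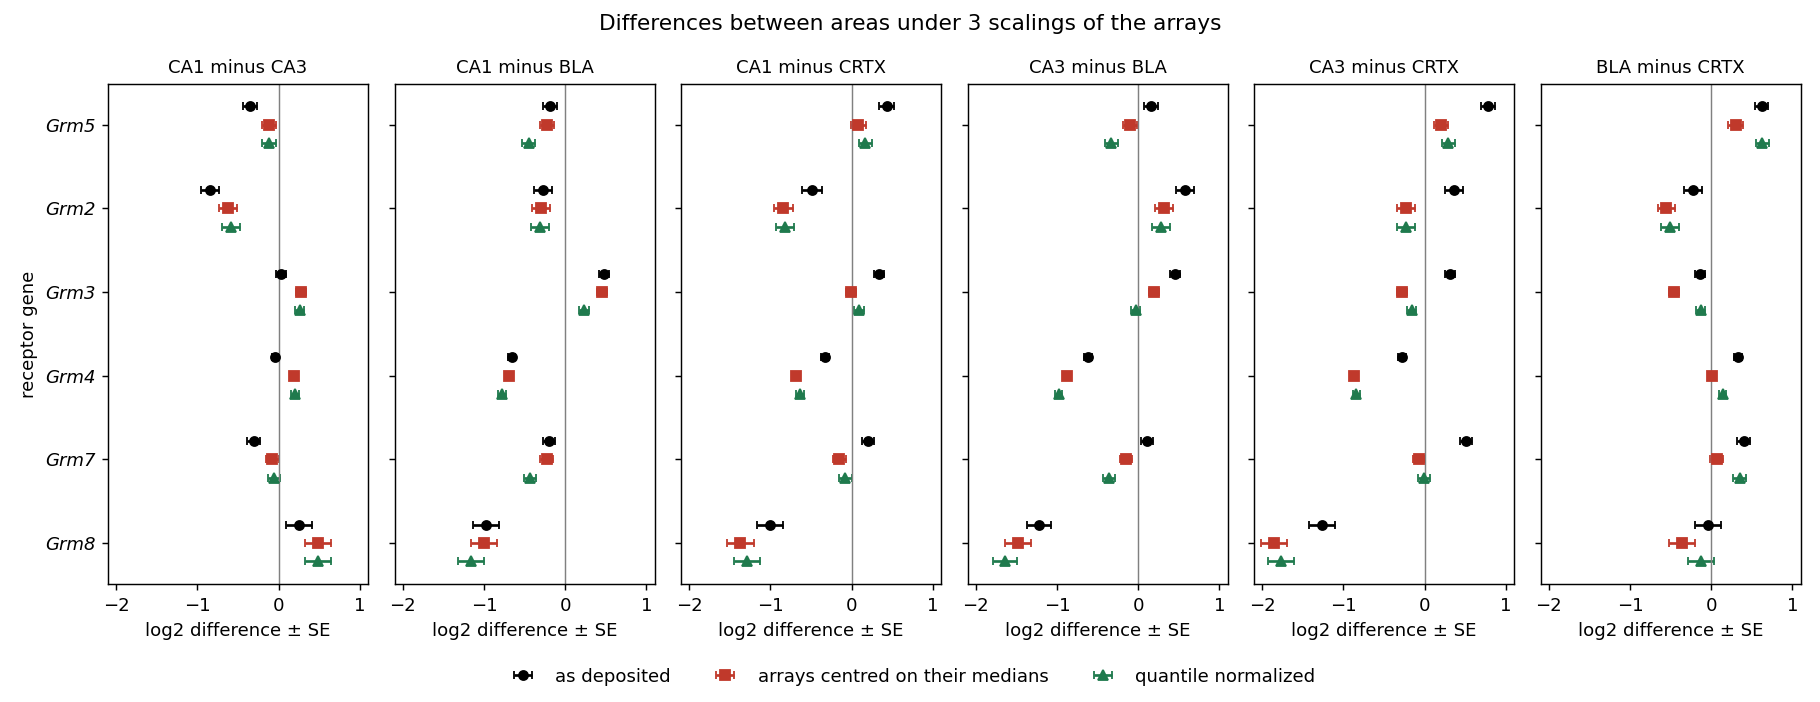
Difference between areas in log2 intensity ± SE (horizontal axes) for each receptor, as deposited (black circles), with arrays centred on their medians (red squares) and quantile normalized (green triangles). *Grm8* and *Grm4* lie left of 0 on every scale in the 4 panels that set CA1 or CA3 against BLA or CRTX, while *Grm3* crosses 0 in CA3 minus CRTX.

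For some receptors the spread within an area followed the dyad group, that is, the set of cages from which a pool was made. In those cases the markers of neighbouring tissue differed between the same arrays. Other cases did not: the Vin and Con arrays of a dyad group differed on average by 0.173 for *Grm5* in CA3 and 0.262 for *Grm2* in CRTX. The dyad means there spanned 0.17 and 0.26. *Grm5* in BLA is the plainest case of spread that followed the dyad group. The Vin and Con arrays of a dyad group differed by -0.07 to 0.04, whereas the dyad groups averaged 10.84, 10.30, 10.09, 10.74, 10.82 and 10.12 (groups 1 to 6). The mean of the 16 striatal markers was 9.07, 7.86, 7.53, 9.23, 9.26 and 7.48 in the same order. Groups 1, 4 and 5 were thus high in both and groups 2, 3 and 6 lower in both. Other lists split the same way over narrower ranges: oligodendrocytes (9.45 to 9.50 against 9.18 to 9.29) and interneurons (8.82 to 8.95 against 8.53 to 8.73). The thalamus and habenula list split the other way (6.74 to 6.87 against 6.94 to 7.08). In bulk punches, fewer cells of a type and less RNA per cell cannot be told apart. The part of the striatal tissue in the *Grm5* level was not tested. Leaving out the arrays of groups 1, 4 and 5, as given above, took away the highest *Grm5* dyad groups and so lowered BLA in any case.

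*Grm2* in CA3 had dyad means that spanned 0.95, from 7.29 to 8.24. Its Vin arrays stood at 8.42, 7.99, 7.18, 7.88, 8.13 and 7.27 and its Con arrays at 8.06, 7.84, 7.43, 7.83, 8.10 and 7.31 in dyad groups 1 to 6, while the dentate granule list averaged 8.36, 8.34, 7.66, 8.13, 8.48 and 7.69. Dyad groups 3 and 6 were the lowest in both. They were also the lowest for the astrocyte list (10.28 and 10.19) and the microglia list (8.39 and 8.38), and the highest for the oligodendrocyte list (10.85 and 10.54). Several lists, not the dentate list alone, thus set these dyad groups apart. *Grm7* in CA3 was likewise lowest in these 2 groups (Vin arrays 9.30 and 9.31; Con arrays 9.29 and 9.43).

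*Grm8* in CA1 spanned 1.95 between dyad groups. Its Vin arrays stood at 8.35, 7.54, 6.73, 8.97, 8.49 and 7.52 in dyad groups 1 to 6 and its Con arrays at 8.19, 7.77, 6.60, 8.25 and 8.15 in groups 1 to 5. The cortical layer list averaged 7.96, 7.77, 7.40, 8.13, 8.11 and 7.93 in those groups, and the CA3 and CA2 pyramidal list 8.36, 8.56, 8.80, 8.07, 8.16 and 8.31. Dyad group 3 was the lowest for *Grm8* and for the cortical list and the highest for the CA3 and CA2 list. It was also the lowest for the CA1 pyramidal list (8.08) and the highest for the choroid plexus list (8.35) and the leptomeninges list (7.30). Several lists thus set this dyad group apart. The part of neighbouring tissue in the *Grm2* and *Grm8* levels was not tested.

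**Figure D3:**
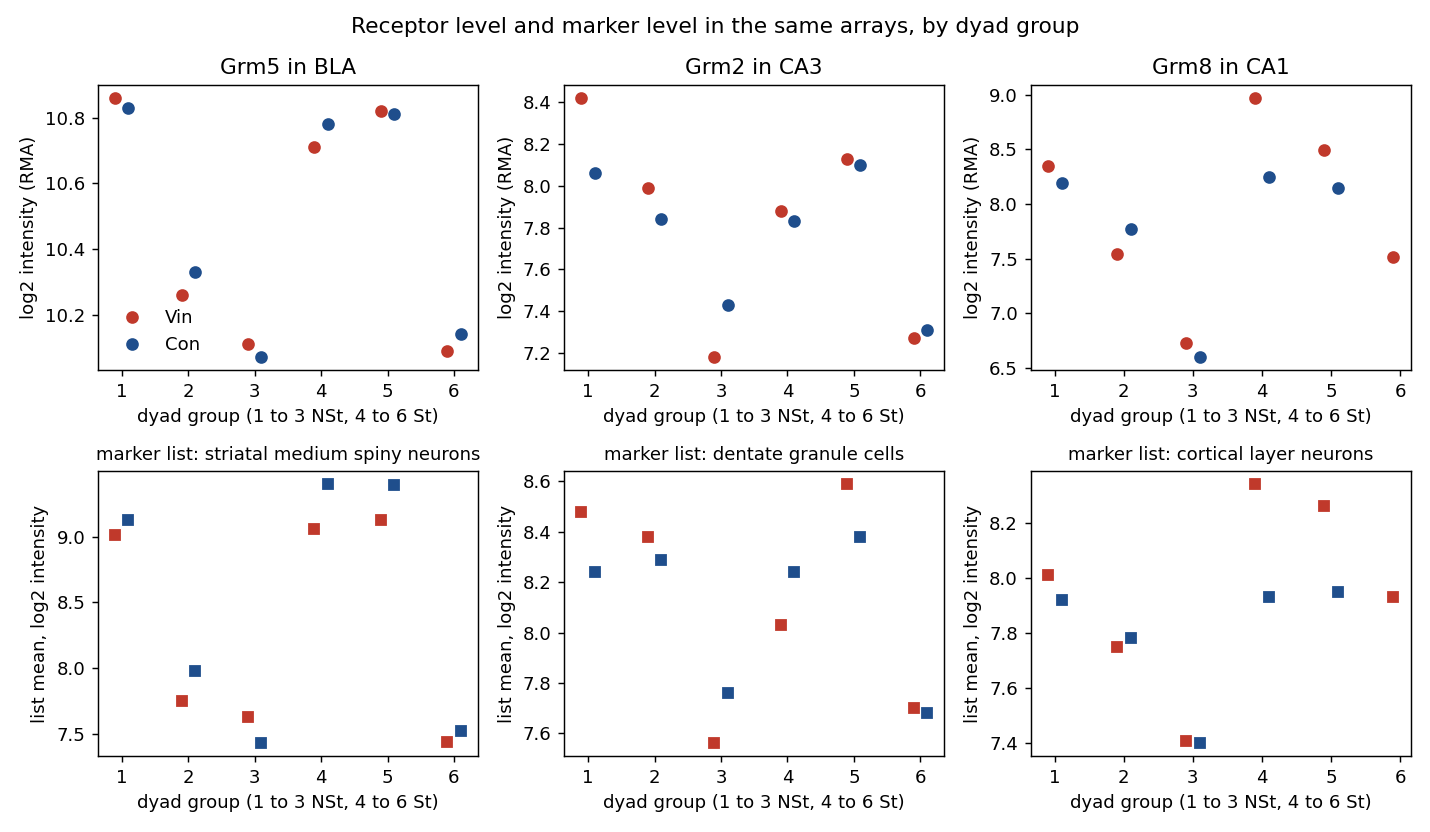
Top, log2 intensity of *Grm5* in BLA, *Grm2* in CA3 and *Grm8* in CA1 by dyad group (horizontal axes), with Vin pools in red and Con pools in blue. Bottom, mean log2 intensity of a marker list in the same arrays. In BLA, dyad groups 1, 4 and 5 are high for both *Grm5* and the striatal list.

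The genes whose values ran most closely with each receptor across the 46 arrays, after the mean of each area was taken off, were chosen by Pearson's r; arrays of a dyad group and of a pool share animals and tissue, so r is a description. For *Grm5* they were *Kcnab1* (0.923), *Ptpn5* (0.92), which encodes a striatum-enriched phosphatase, and *Akap5* (0.904). For *Grm3* they were *Tyro3* (0.903), *Dclk1* (0.885) and *Prkcb* (0.875), and for *Grm8* they were *Rgs4* (0.877), *Tmem196* (0.876) and *Lzts1* (0.871). *Rgs4* encodes a regulator that shortens the signal of Gi and Gq proteins. The nearest to *Grm2* was *Cxcl12* (0.808), followed by *Ehd3* (0.762) and *Pcdh8* (0.761). The nearest to *Grm4* was *Olfm3* (0.786), then *Art3* (0.782) and *Rbms1* (0.78). *Grm7* ran with 2 probe sets of *Eml5* (0.796 and 0.784) and with *Grik2* (0.772), a kainate receptor subunit.

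Without taking off the area means, the nearest gene was *Lingo3* for *Grm5* (0.959), *Rell2* for *Grm2* (0.796), *Lpar1* for *Grm3* (0.92), *Neu2* for *Grm4* (0.93), *Tiam1* for *Grm7* (0.903) and *Sema3a* for *Grm8* (0.936). Those values mix the differences between areas with the spread within them. The next for *Grm3* was *Mal* (0.918), a myelin gene of the oligodendrocyte list. Among the receptors themselves *Grm3* and *Grm8* had the highest r over all 46 arrays with the area means taken off (0.753). This varied by area: r was 0.902 over the 11 CA1 arrays, 0.636 over 12 in BLA, 0.49 over 11 in CRTX and 0.141 over 12 in CA3. Other pairs ran closer in BLA (*Grm3* and *Grm5*, 0.855), CA3 (*Grm2* and *Grm7*, 0.839) and CRTX (*Grm5* and *Grm7*, 0.796).

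Partners and effectors of these receptors were described from a list of 45 genes, of which 40 were measured. In CA3 minus CRTX 15 were called higher and 3 lower on all 3 scales, where 25.5% of all probe sets were higher and 2.71% lower. Among them were the scaffolds *Homer2* (1.65 ± 0.042 as deposited, adjusted p = 6.03e-28) and *Homer3* (1.32 ± 0.059, adjusted p = 3.18e-21), which bind the tail of group I receptors, and the channel gene *Trpc5* (1.90 ± 0.081, adjusted p = 9.91e-22). Lower were *Rgs4* (-1.58 ± 0.18, adjusted p = 4.36e-10) and the phospholipase *Plcb4* (-1.04 ± 0.092, adjusted p = 6.13e-13). The list's median was 0.62 as deposited, 0.03 with centred arrays and 0.05 quantile normalized, beside 0.50, -0.09 and 0 over all probe sets.

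In CA3 minus BLA 20 were called higher and 2 lower, beside 34.6% and 8.64% of all probe sets. The median was 0.58 as deposited, 0.31 with centred arrays and 0.16 quantile normalized, beside 0.32, 0.06 and 0 over all probe sets. *Kcnj6*, a channel opened by the beta-gamma subunits of Gi and Go, was higher by 1.62 ± 0.097 (adjusted p = 3.41e-17), and *Adcy5*, the striatal adenylyl cyclase and a member of the striatal list, lower at -0.80 ± 0.18 (adjusted p = 0.000112). In CA1 minus CA3 1 was higher and 11 lower (8.67% and 23.1% of probe sets), and in CA1 minus BLA 18 and 4 (35.2% and 20.9%). In CA1 minus CRTX 11 were higher and 5 lower (24.9% and 4.51%), and in BLA minus CRTX 9 and 14 (23.2% and 17.1%). Whether the list differs from other genes was not tested.

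Of 19 genes for the supply and removal of glutamate, 17 were measured. On all 3 scales 9 were higher and 0 lower in CA3 minus BLA, where 34.6% of probe sets were higher and 8.64% lower. The vesicular transporters *Slc17a6* (1.02 ± 0.11, adjusted p = 5.48e-11), *Slc17a7* (0.98 ± 0.09, adjusted p = 3.08e-12) and *Slc17a8* (1.18 ± 0.089, adjusted p = 1.94e-14) were among the 9. In CA1 minus CA3, *Slc17a6* (-0.94 ± 0.11, adjusted p = 1.63e-09) and *Slc17a8* (-0.73 ± 0.092, adjusted p = 1.03e-08) were among 4 called lower, with 0 higher (23.1% and 8.67% of probe sets). The counts, higher and lower, were 7 and 0 in CA1 minus BLA (35.2% and 20.9% of probe sets), 5 and 2 in CA1 minus CRTX (24.9% and 4.51%), 8 and 1 in CA3 minus CRTX (25.5% and 2.71%), and 4 and 8 in BLA minus CRTX (23.2% and 17.1%).

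Lineage and stress were compared within each area, in 7 comparisons: the lineage difference with and without stress, the stress difference in Vin and in Con, the average of each, and their interaction. Stress was given to whole dyads, but the stress averages counted the Vin and Con pools of a dyad group as separate. Their standard errors and p-values can therefore be too small. Fitted without the dyad block, none of the 168 tests of the 6 receptors passed the adjusted threshold of 0.05 (limma). In that fit 12 had an unadjusted p under 0.05, of which 6 were in BLA, 3 in CA3, 2 in CA1 and 1 in CRTX. The adjusted background was low as well: of all probe sets 0.505% were called in St-Vin minus NSt-Vin in CA1, 0.636% in St-Con minus NSt-Con in CRTX, 0.00731% in the stress average in CRTX, and 0% in each of the other 25 comparisons. An unadjusted p under 0.05 was found in 19.3% of probe sets for St-Vin minus NSt-Vin in CA1 and 14% in CA3. In BLA it was 4.13% for the stress average and 3.6% for the lineage average. The 7 comparisons share arrays, so the 12 values under 0.05 are not separate results. With the dyad group as a block, which was fitted for lineage and interaction only, more of those tests had an unadjusted p under 0.05. None passed the adjusted threshold there either. The lowest adjusted p was 0.0611 (*Grm3* in CA1, St-Vin minus St-Con), a comparison in which the blocked fit called 1.27% of all probe sets.

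*Grm2* in BLA gave 5 of these 12 values. It stood at 7.00, 6.91 and 7.28 in St-Vin arrays and at 6.61, 6.80 and 7.17 in St-Con arrays (dyad groups 4 to 6), and at 7.56, 7.67 and 7.68 in NSt-Vin arrays and 6.99, 7.53 and 7.26 in NSt-Con arrays (dyad groups 1 to 3). All St-Vin values lay below all NSt-Vin values, the St-Con and NSt-Con values overlapped, and the Vin array was the higher one in 6 of 6 dyad groups.

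The stress average of *Grm2* in BLA, St minus NSt, was -0.49 ± 0.11 (unadjusted p = 0.00074, adjusted p = 0.996). Taken by lineage it was -0.57 ± 0.15 in Vin (unadjusted p = 0.00283, adjusted p = 1) and -0.40 ± 0.15 in Con (unadjusted p = 0.023, adjusted p = 0.996). The lineage average, Vin minus Con, was 0.29 ± 0.11 (unadjusted p = 0.0204, adjusted p = 0.997), and without stress alone 0.38 ± 0.15 (unadjusted p = 0.0304, adjusted p = 1). With the dyad group as a block, the unadjusted p of the lineage average was 0.000801 and the adjusted p 0.245, so no call was made either way. With the striatal list as a covariate the stress average was -0.39 (adjusted p = 0.518 for *Grm2*) and the lineage average 0.26 (adjusted p = 0.517). An unadjusted p under 0.05 was found in 4.13% of probe sets for the stress average and 3.6% for the lineage average in BLA.

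**Figure D4:**
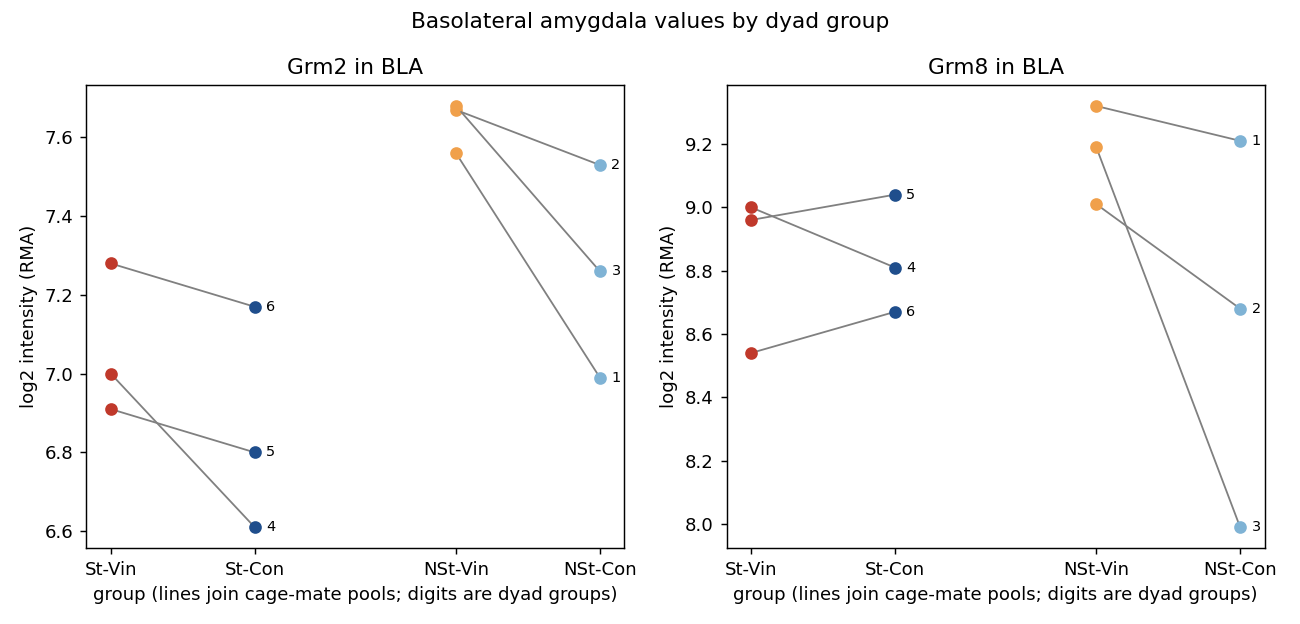
Log2 intensity of *Grm2* and *Grm8* in BLA by group, with lines joining the Vin and Con pools of a dyad group (digits). The Vin pool is the higher one in all 6 dyad groups for *Grm2*, and the NSt-Con pool of dyad group 3 lies apart at 7.99 for *Grm8*.

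*Grm8* in BLA stood at 9.32, 9.01 and 9.19 in NSt-Vin arrays, against 9.21, 8.68 and 7.99 in NSt-Con arrays. The difference was 0.55 ± 0.24 (unadjusted p = 0.0407, adjusted p = 1), and 0.23 for *Grm8* in BLA without the NSt-Con array of dyad group 3. With stress the groups overlapped (9.00, 8.96 and 8.54 in St-Vin; 8.81, 9.04 and 8.67 in St-Con). In CRTX the Vin array was the higher one in 5 of 5 dyad groups, by 0.21 ± 0.18 (SD), and in CA3 in 1 of 6, by -0.21 ± 0.24. With the dyad group as a block, limma gave unadjusted p-values for the *Grm8* lineage average of 0.0141 in CRTX (adjusted p = 0.893) and 0.0218 in CA3 (adjusted p = 0.957). They were 0.0412 in BLA (adjusted p = 0.665) and 0.0057 in CA1 (adjusted p = 0.221). Without stress in BLA it was 0.00731 (adjusted p = 0.889), and with stress in CRTX 0.00801 (adjusted p = 0.744). A limma F test for a lineage effect that differs between areas gave an unadjusted p of 0.467 for *Grm8* (adjusted p = 1).

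*Grm3* in CA1 stood at 11.06, 11.10 and 10.60 in St-Vin arrays, 10.67 and 10.74 in St-Con arrays, 10.70, 10.37 and 10.33 in NSt-Vin arrays and 10.85, 10.56 and 10.30 in NSt-Con arrays. The St-Vin and NSt-Vin values overlapped. The difference St-Vin minus NSt-Vin was 0.45 ± 0.16 (unadjusted p = 0.018, adjusted p = 0.179), where 19.3% of probe sets had an unadjusted p under 0.05, and the stress average was 0.29 ± 0.12 (unadjusted p = 0.0349, adjusted p = 0.261). The St-Vin arrays of CA1 were the only ones of that area on their scan day, and there the stress difference in Vin cannot be told apart from the scan day. The oligodendrocyte list averaged 10.69 in St-Vin arrays, 10.50 in St-Con arrays, 10.23 in NSt-Vin arrays and 10.43 in NSt-Con arrays, and its part in the *Grm3* values was not tested.

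Without the choroid-rich NSt-Con arrays of CA1 (replicates 2 and 3), the *Grm3* stress average was 0.15. That left 1 NSt-Con array (replicate 1), the highest of its group for *Grm3* (10.85) and *Grm8* (8.19), so the value rests on it. With dyad group as a block, which left 2 stressed pairs, *Grm3* in CA1 gave 0.38 ± 0.076 for St-Vin minus St-Con (adjusted p = 0.0611) and *Grm8* 0.53 ± 0.12 (adjusted p = 0.0794); neither passed, while 1.27% of probe sets did. Both pairs set a Vin array of scan day 4 against a Con array of scan day 3, so this difference cannot be told apart from the scan day either. The stress average of *Grm8* in CA1 was the widest of any receptor, 0.73 ± 0.37, with an adjusted p of 0.333, and ran from 0.50 to 0.94 when 1 array was left out. Without the choroid-rich arrays, and so with the same 1 NSt-Con array, *Grm8* in CA1 gave 0.40. The lowest *Grm8* values of CA1 were the non-stressed arrays of dyad group 3 (6.73 in Vin and 6.60 in Con), the second of them choroid-rich. The cortical layer list averaged 8.18 in St-Vin arrays, 7.94 in St-Con arrays, 7.72 in NSt-Vin arrays and 7.70 in NSt-Con arrays of CA1, and its part in the *Grm8* values was not tested.

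*Grm5* in CA3 stood at 10.60, 10.52 and 10.40 in St-Vin arrays, against 10.82, 10.63 and 10.85 in NSt-Vin arrays, without overlap. The difference was -0.26 ± 0.076 (unadjusted p = 0.00501, adjusted p = 0.249), where 14.0% of probe sets had an unadjusted p under 0.05. St-Con arrays (10.63, 10.61 and 10.68) and NSt-Con arrays (10.61, 10.79 and 10.58) overlapped. The interaction, the lineage difference with stress minus that without, was -0.24 ± 0.11 (unadjusted p = 0.0448, adjusted p = 0.752), and the stress average -0.14 ± 0.054 (unadjusted p = 0.0227, adjusted p = 0.448).

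In CRTX, *Grm2* stood at 7.13, 7.34 and 7.44 in St-Vin arrays and 7.64, 7.40 and 7.52 in St-Con arrays, and at 7.75 and 7.34 in NSt-Vin arrays and 7.27, 7.25 and 7.52 in NSt-Con arrays. Its interaction was -0.41 ± 0.17 (unadjusted p = 0.0342, adjusted p = 0.869), and -0.62 with scan day as a block. The St arrays of CRTX were all scanned on day 2 and the NSt-Con arrays on day 1, while NSt-Vin arrays lay on both. The block was therefore set by the NSt-Vin arrays alone, as if that of dyad group 3 were left out. It cannot separate stress from scan day in Con. Leaving out 1 array gave -0.62 to -0.21 for *Grm2* in CRTX, the smallest without the NSt-Vin array of dyad group 1. *Grm4* and *Grm7* had no unadjusted p under 0.05 in any area without the dyad block. With it, *Grm7* in CA1 gave -0.25 for St-Vin minus St-Con (unadjusted p = 0.0305, adjusted p = 0.322). The lineage average of *Grm4* lay between -0.03 and 0.02 in every area.

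**Figure D5:**
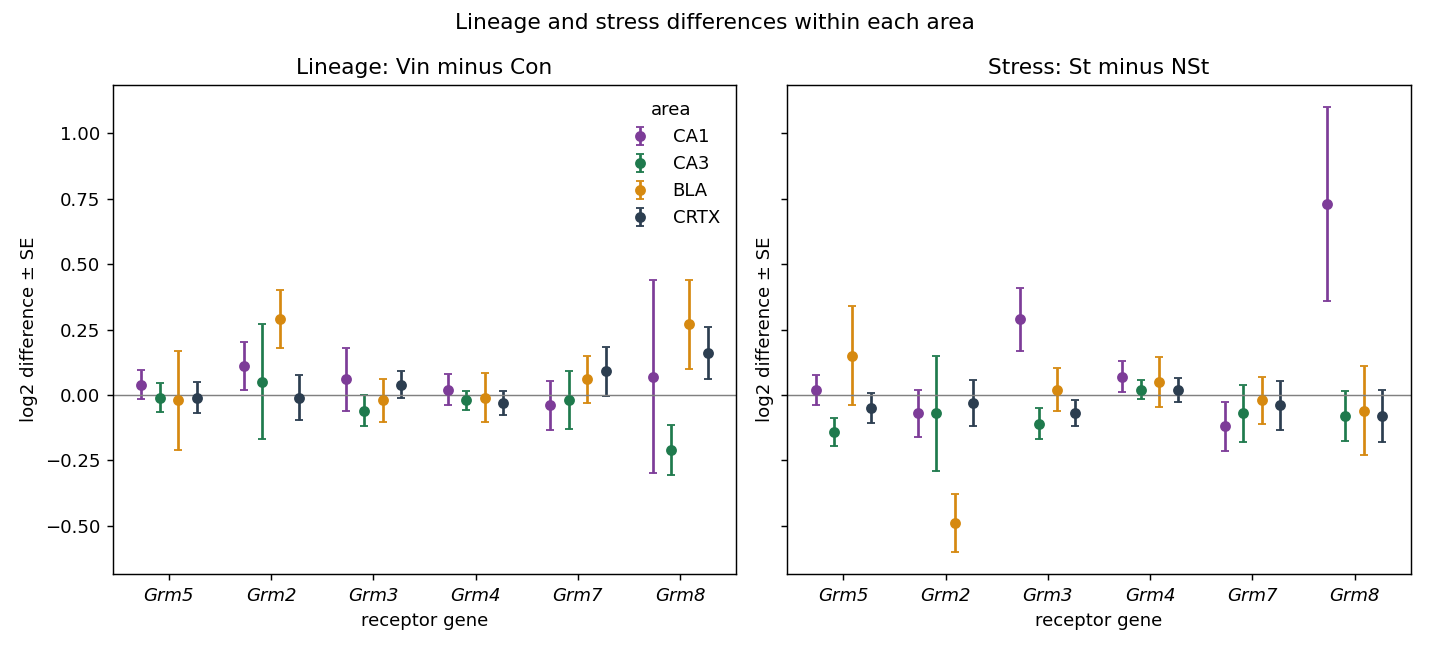
Lineage difference (left, Vin minus Con) and stress difference (right, St minus NSt) in log2 intensity ± SE for each receptor, coloured by area. None passed the adjusted threshold; *Grm2* in BLA lies at 0.29 for lineage and -0.49 for stress, and *Grm8* in CA1 at 0.73 ± 0.37 for stress.

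Averaged over the 4 areas of a pool, for the 10 pools measured in all of them, no receptor passed for lineage, stress or interaction, nor did any other probe set (0% called in each). The stress average of *Grm2* was -0.15 ± 0.061 (unadjusted p = 0.0301, adjusted p = 0.579), and ran from -0.25 (without NSt-Vin of dyad group 3) to -0.06 (without NSt-Vin of dyad group 1) when 1 pool was left out. The F test for a stress effect that differs between areas called 0 of 6 receptors and 0.907% of probe sets; the unadjusted p was 0.0114 for *Grm3* (adjusted p = 0.158) and 0.0392 for *Grm8* (adjusted p = 0.255). The partner and glutamate supply lists had 0 calls in all 28 comparisons within areas.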

How the data were processed

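Per the submitters' processing notes, the values were made with Partek and RMA, which corrects background, normalizes and summarises probe sets; versions and genome build are not given in the sources used here. The deposited table holds log2 values of 27342 probe sets in 48 arrays. The platform annotation gives 15097 probe sets 1 symbol, 323 several and 11922 none; 15067 matched RefSeq (GRCr8).

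limma 3.58.1 (R 4.3.3, statmod 1.5.0) was fitted to all probe sets: per area with 4 group means, over all areas with the pool as a random block for the area differences and F tests, and on the mean of 4 areas per pool. Tests were two-sided, with Benjamini-Hochberg adjustment over all probe sets and a threshold of 0.05. The scripts were tested on simulated data. Vin and Con pools of a dyad group were cage mates per the labels; their deviations from the group means correlated above 0.1 in 5 of 5 pairs in CA1, 5 of 6 in CA3, 6 of 6 in BLA and 3 of 5 in CRTX. The 2 arrays left out equalled their group's mean within 0.0051. Choroid-rich arrays stood over 0.6 above their area in the choroid list. Arrays carry no read depth. Their number limits the precision, and p-values measure the spread between pools. The stress averages, within and over areas, and the stress F test counted the Vin and Con pools of a dyad group as separate. Stress was given to whole dyads, so the p-values of these tests can be too small. The genes, the lists and the rule for naming genes were chosen with earlier results of these data known. That rule took all 6 receptors, with details where an unadjusted p was under 0.05 in the fit without the dyad block.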

Additional observations from a re-analysis of the deposited data

Results flagged for a closer look

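For *Grm2* in CA1 the lineage difference within dyad groups had opposite signs with and without stress. Vin minus Con averaged -0.15 in the 2 stressed dyad groups with both arrays and 0.23 in the 3 non-stressed ones, a gap of -0.38, and every dyad group of each kind had the sign of its average. That pattern of signs is not a test. The interaction fitted without the block was -0.25 ± 0.18 (unadjusted p = 0.191, adjusted p = 0.965), and with the dyad group as a block -0.38 ± 0.088 (unadjusted p = 0.00215, adjusted p = 0.132), so neither passed. Both stressed pairs set a Vin array of scan day 4 against a Con array of scan day 3, while the non-stressed pairs lay within scan day 3, so the split and the interaction cannot be told apart from the scan day. Signs were compared in 24 combinations of receptor and area, of which this was the 1 with such a split.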

How the results depend on the processing

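Differences between areas depended mainly on how arrays of different areas were scaled. For CA1 minus CRTX, 6 receptors were called as deposited, but 3 with arrays centred on their medians and 3 with quantile normalization. With centred arrays the sign turned for *Grm4* in CA1 minus CA3 (0.19), *Grm3* (-0.01) and *Grm7* (-0.15) in CA1 minus CRTX, *Grm5* (-0.10) and *Grm7* (-0.15) in CA3 minus BLA, and *Grm2* (-0.23), *Grm3* (-0.28) and *Grm7* (-0.07) in CA3 minus CRTX. With quantile normalization it turned for *Grm4* in CA1 minus CA3 (0.20), *Grm7* in CA1 minus CRTX (-0.08), *Grm3* (-0.03), *Grm5* (-0.33) and *Grm7* (-0.36) in CA3 minus BLA, and *Grm2* (-0.23), *Grm3* (-0.16) and *Grm7* (-0.01) in CA3 minus CRTX. Leaving out the striatum-rich BLA arrays, an alternative chosen after seeing the data, turned *Grm5* in CA1 minus BLA (0.14). The cause was not tested. Within areas and on the mean of areas, all 536 counts of receptors called were 0 under the alternatives run, including the replicate block (dyad group), leaving out single arrays or pools, all 48 arrays, quantile normalization, the filter on dim probe sets at the 30th percentile, a robust eBayes with a trend, scan day in CRTX and the marker-based settings. A further probe set per gene (each receptor has 1) and scan day as a block in CA1 were not run. With 2 or 3 pools a group, small lineage or stress differences could have been missed.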
